A study of Mus musculus with 11 samples.

Results

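Open chromatin of wound-front keratinocytes was compared between *Grhl3*-cKO and WT mice through the ATAC-seq peak lists of the wounded samples. The WT wounded list held 36872 peaks and the cKO wounded list was shorter. The whole cKO list was taken, with as many WT peaks of the largest −log10 p, and a peak was counted as found in one list only when no base of it overlapped a peak of the other list. This left 6146 WT only peaks (27.3%, 95% Wilson interval 26.8 to 27.9) and 6028 cKO only peaks (26.8%, 26.2 to 27.4). Together these were 12174 of the 44948 peaks compared and of the 99479 peaks in the 4 lists of the series. These shares are set by the choice of peaks and were read as a description, with no test.

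The cells were sorted epidermal keratinocytes of C57BL/6J mice (C57BL/6 in the labels), taken at 8 weeks of age from wounded or unwounded skin. The cKO mice carried *Krt14*-Cre and floxed *Grhl3* alleles, and the WT littermates carried *Krt14*-Cre as well. In the wounded groups the skin was cut with a 4 mm punch and the 1 mm wound margin was collected on day 3, and cells were sorted for CD49f and against CD45, CD31 and TER119. ATAC-seq covered 4 conditions (WT unwounded, WT wounded, cKO unwounded and cKO wounded) with 1 library each, pooled from 4 wounds of 2 mice in the wounded conditions. RNA-seq of the same cell type covered 2 WT unwounded, 2 WT wounded, 1 cKO unwounded and 2 cKO wounded libraries. The *Krt14* promoter limits the deletion to keratin 14 lineages, so follicle and epidermal keratinocytes are targeted alike. With 1 pooled library per condition the ATAC-seq has no replicate error, and differences between mice, pools and genotypes cannot be told apart.

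ATAC-seq marks DNA that a transposase can reach, which in most cells means active promoters and enhancers. GRHL3 belongs to the grainyhead-like family of transcription factors, which bind a short palindromic motif at epithelial enhancers, and the family is known for opening chromatin there. In skin, GRHL3 acts in barrier formation and in closure of epithelial sheets, and wound-front keratinocytes change from a stationary layer to a sheet that migrates.

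Each deposited peak carries a −log10 p and a fold enrichment over the local background, both averaged by MACS2 over the region. They describe how far a peak stood above its own library and are no test between libraries. The study's methods give a lower bound of reads per sample, but the lists give no read counts, so how depth differed between the ATAC-seq libraries cannot be read from them. The peaks covered 18.01 Mb in WT wounded, 10.04 Mb in cKO wounded, 4.43 Mb in WT unwounded (10769 peaks) and 13.5 Mb in cKO unwounded (29364 peaks). A longer list reaches weaker peaks, and the last WT peak taken, chr9:100951456-100951723, had a −log10 p of 5.37 and a fold enrichment of 4.14. The first WT peak left out, chr6:94598198-94598637, also had a −log10 p of 5.37. The whole cKO list was used, and it reached down to a −log10 p of 3.46.

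The keratinocyte label was checked against marker genes. The summed level of 13 keratinocyte markers lay between 43885 and 61942 CPM (counts scaled to library size) in the 7 RNA libraries, and *Krt14* was the most abundant of them in each wounded group. Summed levels of 9 leukocyte markers lay between 0.81 and 5.33 CPM, with *Cd3e*, *Cd3g* and *Laptm5* at 0 in all wounded libraries. In the ATAC-seq lists the keratinocyte promoters were less complete. *Dsc3*, *Dsg3* and *Perp*, which encode desmosomal and junction proteins, had promoter peaks in both wounded lists, and *Krt14* had one of −log10 p 4.39 in WT wounded, under the length limit, and none in cKO wounded. No promoter peak was listed in any condition for *Krt5*, *Krt15*, *Col17a1*, *Itgb4*, *Trp63*, *Krt1*, *Krt10* or *Sfn*. Of the 9 leukocyte markers, 0 had a promoter peak in either wounded list.

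The peaks found in one list only were the weaker ones of each list. Of the 1000 strongest WT peaks 0 lacked a cKO peak, and of the 1000 strongest cKO peaks 3 lacked a WT peak. With each list split by rank into 10 equal parts, the share without a partner went from 0.400% in the strongest to 56.2% in the weakest part of the WT list. In the cKO list it went from 0.934% to 64.5%. WT only peaks had a median fold enrichment of 4.47 and a median width of 312 bases, against 4.97 and 570 for WT peaks with a partner. For cKO only peaks the medians were 3.87 and 285, against 4.60 and 436 with a partner.

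Most cKO only peaks overlapped a WT peak that was not taken. Of the 6028, 3855 (64.0%) overlapped a WT wounded peak that fell under the length limit. In these places the median −log10 p was 4.996 in cKO and 4.72 in WT, and the median fold enrichment was 3.90 against 3.64, a median log2 ratio of 0.12. The WT fold enrichment was the higher one in 934 of them (24.2%) and the WT −log10 p in 1292 (33.5%), and in 0 places did the cKO value reach 2 times the WT value. The other 2173 cKO only peaks, 9.67% of the cKO list, had no WT wounded peak at any strength. Every WT only peak lacked a cKO wounded peak at any strength, because the whole cKO list was used.

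Regions listed on both sides were compared by strength. Over 16177 regions with 1 peak in each list, the median log2 ratio of cKO to WT fold enrichment was −0.10, and the cKO value was the lower one in 67.8%. In 3 regions the cKO value was at least 2 times lower and in 0 it was at least 2 times higher. The median −log10 p was 8.23 in WT and 6.65 in cKO, and the median width 568 and 438 bases. The fold enrichments of the 2 libraries had a Spearman correlation of 0.613 across these regions, which are not independent replicates.

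Peaks found in one list only lay away from promoters more often than shared peaks. A promoter was taken as 1000 bases before to 100 bases after an annotated gene start. Among WT only peaks 16.7% (15.8 to 17.6) were at promoters, 6.61% in exons, 40.1% in introns and 36.6% between genes. Among cKO only peaks 23.3% (22.2 to 24.3) were at promoters, 5.46% in exons, 36.5% in introns and 34.8% between genes. The promoter share of shared peaks was 40.9% in the WT and 40.4% in the cKO list. The cKO peaks with no WT peak at any strength were the farthest from genes, with 12.6% at promoters, 43.1% between genes and 31.0% more than 50 kb from the nearest gene start. For WT only peaks 19.8% lay that far, and for shared WT peaks 15.7%. The median distance to a gene start was 14546.5 bases for WT only, 13209 for cKO only, 20002 for cKO peaks without any WT peak and 5713.5 for shared WT peaks. These intervals cover counting error only.

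The unwounded lists took no part in choosing the peaks. Of the WT only peaks 54.0% were listed in cKO unwounded and 8.31% in WT unwounded, and 44.9% in neither. Of the cKO only peaks 54.8% were listed in cKO unwounded and 8.36% in WT unwounded, and 44.0% in neither. Shared WT peaks were listed in cKO unwounded in 94.2% of cases and in WT unwounded in 56.1%. So 3319 places open in WT wounded and missing from the cKO wounded list were listed in the unwounded cKO library. The cKO peaks without any WT wounded peak were the least often listed before wounding, with 29.8% in cKO unwounded, 2.95% in WT unwounded and 68.7% in neither. The WT unwounded list is the shortest of the 4, which lowers every share taken against it. These shares depend on how the peaks were taken. With whole lists, cKO unwounded held 40.1% of WT only and 29.8% of cKO only peaks. Ranked by fold enrichment, WT unwounded held 7.20% and 15.7%, and with the 10000 strongest peaks of each list it held 41.3% and 35.2%.

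On chromosomes 1 to 19 and X the shares differed little. The WT only share of the WT peaks ran from 22.5% on chromosome X to 31.0% on chromosomes 11 and 15. Among the same chromosomes the cKO only share of the cKO peaks ran from 23.0% on chromosome 18 to 32.5% on chromosome 4. Chromosome Y had 5 peaks in each list and the mitochondrial DNA 2, and they were left out of these ranges.

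The strongest WT only peaks were mostly intronic or intergenic, and all of the 10 strongest were also listed in the unwounded cKO library. The first, chr8:91545641-91545930 in an intron of *Fto*, an RNA demethylase gene, had a −log10 p of 15.8 in WT wounded, 8.01 in WT unwounded and 9.39 in cKO unwounded, and was not listed in cKO wounded. An intron of *Ldlrad3*, which encodes a membrane protein of the LDL receptor family, followed at chr2:102052960-102053346, with 14.8 in WT wounded, 6.86 in WT unwounded and 7.51 in cKO unwounded. Both places were open in the cKO library before wounding and not listed in it after. An intron of *Il1rl2*, which encodes the interleukin 36 receptor, held chr1:40340660-40340930 with 14.2 in WT wounded and 6.58 in cKO unwounded. Others were an intergenic peak at chr15:81845768-81846099 with 13.8 and the promoters of the histone gene *Hist1h4n* with 13.7 and of *Nol6*, a gene of ribosome assembly, with 13.6. The *Il1rl2* RNA was 77.4 and 89.4 CPM in WT wounded and 76.2 and 88.5 CPM in cKO wounded, so the libraries of the genotypes overlapped. *Nol6* RNA also overlapped, at 92.2 and 76.0 CPM in WT wounded and 96.4 and 71.1 CPM in cKO wounded.

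The strongest cKO only peaks were of another kind, since 6 of the 10 were promoters of zinc finger genes in 1 stretch of chromosome 2. The first, chr2:176708014-176708606 at the promoter of *Gm14305*, had a −log10 p of 19.2 in cKO wounded and 17.1 in cKO unwounded and was listed in neither WT library. The promoter of *Zfp968*, chr2:175372146-175372672, had 14.3 in cKO wounded and 8.49 in cKO unwounded, and that of *Zfp966*, chr2:175930890-175931407, had 12.6 and 9.24. Neither was listed in WT. Outside this stretch, the strongest was an intergenic peak at chrX:92107354-92107627, with 13.2 in cKO wounded, 8.59 in cKO unwounded and 11.1 in WT unwounded. It was not listed in WT wounded. An intron of *Plcb4*, a phospholipase C gene, held chr2:135766694-135766979 with 12.4 in cKO wounded, 6.94 in cKO unwounded and 5.17 in WT wounded, where it fell under the length limit. The promoter of *Fam111a*, which encodes a replication-linked protease, at chr19:12573205-12573578 had 11.8 in cKO wounded, 13.7 in cKO unwounded, 6.70 in WT unwounded and 4.96 in WT wounded. *Plcb4* and *Fam111a* were thus open in both genotypes.

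Sequences are shown for 2 of the strongest WT only peaks and 1 of the strongest cKO only peaks, all in introns, as examples. They are not all of the strongest peaks, and their motifs do not stand for the lists. They were copied from the RefSeq genome of mm10, plus strand, and capitals mark a GRHL core motif or an AP-1 motif on either strand. The GRHL core was searched as AACCGGTT, AACCAGTT, AACAGGTT or AACAAGTT, and AP-1 as TGANTCA.
Fto, chr8:91545726-91545846: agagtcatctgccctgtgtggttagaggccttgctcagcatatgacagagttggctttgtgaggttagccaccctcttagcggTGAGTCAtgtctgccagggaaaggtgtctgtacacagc
Ldlrad3, chr2:102053093-102053213: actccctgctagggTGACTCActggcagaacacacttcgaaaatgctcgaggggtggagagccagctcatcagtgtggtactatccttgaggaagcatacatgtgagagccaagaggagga
Plcb4, chr2:135766777-135766897: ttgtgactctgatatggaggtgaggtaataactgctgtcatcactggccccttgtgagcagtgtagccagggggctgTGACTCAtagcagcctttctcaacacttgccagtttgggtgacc
A match is a description of the letters and not a bound site.

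The zinc finger stretch of chromosome 2 stood apart in both cKO libraries. Between chr2:175338019-177314887, 19 cKO wounded peaks had no WT wounded peak at any strength. All 19 were listed in cKO unwounded and 0 in WT unwounded, 15 were promoters, and their median −log10 p was 10.5 with a median fold enrichment of 6.05. The genes include *Zfp965*, *Zfp966*, *Zfp967*, *Zfp968*, *Zfp969*, *Zfp973*, *Gm14295* and *Gm14305*, a cluster of near-identical copies that encode KRAB-type zinc finger proteins. Reads of such copies cannot be told apart, so single positions here are uncertain. *Gm14295* had 104 and 10 reads in WT unwounded, 117 and 13 in WT wounded, 51 in cKO unwounded, and 62 and 38 in cKO wounded. The RNA of this gene thus differed more between the WT replicates than between genotypes.

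Another such stretch held *Skint* genes, which encode butyrophilin-like proteins of the epidermis that act on skin T cells. Between chr4:112072506-113451048, 13 cKO wounded peaks had no WT wounded peak, 10 of them were listed in cKO unwounded and 0 in WT unwounded. An intron of *Skint6*, chr4:113262716-113263174, had a −log10 p of 10.8, an intron of *Skint4*, chr4:112080117-112080358, had 10.1, and the *Skint4* promoter, chr4:112072506-112073005, had 8.72. In the RNA, *Skint3* had 595 and 0 reads in WT unwounded, 451 and 0 in WT wounded, 393 in cKO unwounded, and 506 and 600 in cKO wounded. *Skint4* had 324 and 0, 343 and 0, 622, and 417 and 768 reads in the same order. *Skint9* had 73 and 0, 122 and 0, 104, and 149 and 173 reads. The 0 counts were those of replicate 2 in both WT groups. Of 24421 genes in the tables, these 3 were the only ones at 0 in both WT replicate 2 libraries with at least 50 reads in each other library, and 0 genes met the same rule for WT replicate 1 or for cKO replicate 2. The cKO unwounded library is replicate 2 by its label and 1 by its file, so the cKO pairing is uncertain. *Skint1* had 568 and 181, 458 and 271, 622, and 795 and 1095 reads, a log2 difference between the wounded groups of 1.53 (standard error 0.41). *Skint6* had 100 and 27, 159 and 15, 230, and 205 and 475 reads, a log2 difference of 2.15, which was 4.57 without WT wounded replicate 1, 1.31 without WT wounded replicate 2 and 1.42 without cKO wounded replicate 2. Whether the DNA of this stretch differed between the mice was not tested.

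The gap between *Hrh1* and *Atg7* on chromosome 6 held 14 cKO wounded peaks without any WT wounded peak in 94.1 kb, at chr6:114499379-114593434. Of these 11 were listed in cKO unwounded and 0 in WT unwounded, and 0 lay at a promoter. The strongest, chr6:114543352-114543599, had a −log10 p of 7.43. *Atg7*, a gene of autophagosome formation, had 288 and 405 reads in WT wounded and 408 and 445 in cKO wounded. *Hrh1*, a histamine receptor gene, had 15 reads or fewer in each wounded library. These 3 stretches were picked after their values were seen. Without them 5981 of the 6028 cKO only peaks were left.

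Other dense places held repeated gene families. Among zinc finger genes of chromosome 13, 22 cKO only peaks lay at chr13:64224950-66821284, 19 of them without any WT wounded peak, of which 3 were listed in cKO unwounded and 1 in WT unwounded. On chromosome 1, 22 cKO only peaks lay in 1 Mb around *Sp100* and *Sp140*, genes of nuclear body proteins, and 11 of these had no WT wounded peak. On chromosome 5, 40 cKO only peaks lay among *Speer4* genes, 15 of them without any WT wounded peak, and on chromosome 8, 23 lay among defensin genes, 10 of them without one. In these last 3 places the WT unwounded list held 4, 7 and 2 of the peaks that WT wounded lacked. For WT only peaks the densest 1 Mb windows were milder, with 15 of 31 WT peaks around *Bcas1*, *Dok5* and *Zfp217*, and 15 of 34 around *Lrp6*, *Apold1* and *Bcl2l14*. The median window with such a peak held 3 of 9.

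By nearest gene start, *Pde4d*, a cyclic AMP phosphodiesterase gene, had the most WT only peaks, 9 of its 30 WT peaks, and it also had 6 cKO only peaks. *Rapgef5*, an exchange factor of Rap proteins, had 7 of 14. *Tfap2c*, which encodes the epidermal regulator AP-2 gamma, had 7 WT only peaks of its 10, spread over chr2:172549260-172662086, of which 4 were listed in cKO unwounded and 2 in WT unwounded. Among cKO only peaks *Bmper*, an inhibitor of bone morphogenetic proteins, led with 9 of its 12, and *Alcam*, a cell adhesion gene, had 7 of 10. The leading genes of the 2 sets were different ones apart from *Pde4d*, which is among the first 12 of both.

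The targeted gene was read in every RNA library. *Grhl3* had 120.8 and 80.9 CPM in WT unwounded, 109 and 90.2 CPM in WT wounded, 77.8 CPM in cKO unwounded, and 120.6 and 103 CPM in cKO wounded. The groups overlapped, with a log2 difference of 0.17 (standard error 0.21), which was 0.04 without WT wounded replicate 2 and 0.31 without WT wounded replicate 1. The counts run over the whole gene and do not show the loss of the targeted exons, so these files do not show the deletion. The study reports checks of it by PCR over the floxed region and by staining. In the ATAC-seq, WT wounded had 2 peaks at *Grhl3* and cKO wounded had 0. The upstream one, chr4:135575584-135575768, was a WT only peak with a −log10 p of 5.40, just inside the length limit, and 3.82 in cKO unwounded. The intronic one, chr4:135565521-135565921, had 4.27 and lay under the limit, with 4.42 in cKO unwounded.

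*Fscn1*, which encodes the actin-bundling protein fascin, had the same 2 regions listed in both wounded lists. The upstream region had a −log10 p of 7.60 and a fold enrichment of 4.81 in WT (chr5:142958681-142958931) against 5.22 and 3.98 in cKO (chr5:142958766-142958951). It was listed in neither unwounded library. The intronic region had 6.14 and 4.13 in WT (chr5:142963258-142963771) against 5.35 and 4.01 in cKO (chr5:142963306-142963491), and 5.44 in cKO unwounded. Both values were thus lower in cKO at both regions, with 1 library on each side and no measure of error. *Fscn1* RNA was 54.2 and 95.8 CPM in WT unwounded, 110.3 and 129.6 CPM in WT wounded, 34.4 CPM in cKO unwounded, and 134 and 55.6 CPM in cKO wounded. The cKO replicates lay on either side of WT, with a log2 difference of −0.34 (standard error 0.32), which was 0.16 without cKO wounded replicate 2 and −1.10 without cKO wounded replicate 1. The sequences of both regions are from the plus strand of the RefSeq genome of mm10, with the same use of capitals.
Fscn1 upstream, chr5:142958771-142958891: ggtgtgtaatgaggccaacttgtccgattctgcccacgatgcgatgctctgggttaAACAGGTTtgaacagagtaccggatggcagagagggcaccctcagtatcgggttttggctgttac
Fscn1 intron, chr5:142963455-142963575: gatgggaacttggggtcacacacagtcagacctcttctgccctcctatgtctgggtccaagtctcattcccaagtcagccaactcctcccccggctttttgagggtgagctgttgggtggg
The upstream sequence held 1 GRHL core match and the intronic one held 0 matches of either motif. The intronic peak held 0 GRHL core matches over its whole length as well. The study reports a strong GRHL3 motif in its wound-gained peak of the first *Fscn1* intron, from a search with an established motif. Only the exact letters given above were searched here, so a looser match would be missed and that report was not tested.

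Bulk RNA was compared between cKO wounded and WT wounded as a readout that took no part in choosing the peaks. Library totals lay between 13497283 and 16807451 reads. Of 14045 genes tested with the edgeR quasi-likelihood test, 567 had an unadjusted P under 0.05, 292 lower in cKO (2.08%) and 275 higher (1.96%). After Benjamini-Hochberg adjustment 0 genes (0%) passed 0.05, while DESeq2 gave 3 adjusted and 556 unadjusted. The p-values measure only the spread between these samples. In bulk samples fewer cells of a type and less RNA or less accessible DNA per cell cannot be told apart.

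RNA was then read at genes with peaks in one list only. A WT only promoter peak was found at 1186 of 35281 annotated genes (3.36%) and a cKO only promoter peak at 1583 (4.49%). Of the 879 tested genes with a WT only promoter peak 21 were lower (2.39%) and 20 higher (2.28%) at unadjusted P under 0.05 by edgeR, with a median log2 difference of 0.01 against −0.01 over all genes. Of the 1164 tested genes with a cKO only promoter peak 44 were lower (3.78%) and 24 higher (2.06%), with a median of −0.03. Of 117 tested genes nearest to at least 3 WT only peaks away from promoters 8 were lower (6.84%) and 3 higher (2.56%). Of 91 such genes for cKO only peaks 3 were lower (3.30%) and 2 higher (2.20%). The sets were not tested against the other genes.

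Among genes with a WT only promoter peak, the 5 with the smallest P are given. *Asprv1*, a protease of filaggrin processing, had 27.5 and 25.03 CPM in WT wounded and 60.5 and 47.0 CPM in cKO wounded, a log2 difference of 1.03 (standard error 0.22). Its promoter peak, chr6:86627818-86628227, had a −log10 p of 6.48 in WT wounded. *Il20ra*, a receptor chain for interleukin 20 cytokines, had 15.1 and 23.5 CPM in WT wounded and 39.9 and 50.2 CPM in cKO wounded, a log2 difference of 1.23 (standard error 0.27). *Dapl1*, expressed early in epithelial differentiation, had 16.3 and 19.8 CPM against 35.0 and 35.8 CPM, a difference of 0.97, and the strongest promoter peak of the group (chr2:59484339-59484855, 12.3). *Dsg1a*, a desmosomal cadherin of upper layers, had 359 and 444 CPM against 566 and 596 CPM, a difference of 0.53, which was 0.39 without WT wounded replicate 1. In these 4 genes both cKO libraries lay above both WT libraries although the promoter peak was listed in WT. *Actn1*, an actin crosslinker, had 367 and 457 CPM against 268 and 225 CPM, a difference of −0.74. The smallest adjusted p of the 5 was 0.783 in the quasi-likelihood model of edgeR after Benjamini-Hochberg, and over the alternatives these genes ranged from 0.00326 (*Il20ra*) to 1.

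Among genes with a cKO only promoter peak, *Cald1*, which encodes the actin and myosin binding protein caldesmon, had the smallest P of all genes. Its RNA was 35.6 and 52.4 CPM in WT unwounded, 109.8 and 161 CPM in WT wounded, 31.2 CPM in cKO unwounded, and 49.3 and 35.4 CPM in cKO wounded. Both cKO wounded libraries lay at the level of the unwounded ones, and the log2 difference from WT wounded was −1.68 with a standard error of 0.25. In the quasi-likelihood model of edgeR the Benjamini-Hochberg adjusted p of *Cald1* was 0.0729, and 1.97e-11 to 1 over the alternatives. The promoter peak went the other way. It had a −log10 p of 7.29 and a fold enrichment of 5.04 in cKO wounded (chr6:34598259-34598919), 4.84 and 3.60 in WT wounded (chr6:34598243-34598711), and 6.03 in cKO unwounded. Within the gene, 3 intronic peaks were WT only, at chr6:34624656-34624883, chr6:34721780-34722148 and chr6:34754554-34754738, with −log10 p of 5.45, 6.07 and 5.90, and the first 2 of them were listed in cKO unwounded. A pair of further peaks were cKO only, at a second promoter (chr6:34709223-34709591, 4.54) and in an intron (chr6:34750726-34750993, 4.58). At the second promoter WT wounded had a peak of 4.35 under the length limit (chr6:34709259-34709556). *Fam167a* (183 and 151 CPM in WT wounded, 107 and 90.9 CPM in cKO wounded) and *Msrb3*, a methionine sulfoxide reductase gene (47.6 and 33.8 CPM against 19.4 and 25.4 CPM), were also lower in both cKO libraries. *Hspb8*, a small heat shock protein gene (72.0 and 53.6 CPM against 105 and 103 CPM), and *Txnip*, which encodes a thioredoxin inhibitor (92.2 and 94.7 CPM against 131 and 148 CPM), were higher in both. Their log2 differences were −0.76, −0.86, 0.72 and 0.58, and that of *Msrb3* was −0.59 without WT wounded replicate 1.

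In the gene lists, promoter counts stand against 3.36% of all annotated genes with a WT only and 4.49% with a cKO only promoter peak, or 4.47% and 6.05% of protein coding genes. At *Ccl20*, *Ccn2*, *Dnmt1*, *Ehf*, *Elovl1*, *Jund*, *Lef1*, *Ocln*, *Pkp1*, *Plec*, *Rhoa*, *Satb1*, *Sox9* and *Tead1* the promoter counted as cKO only had a WT wounded peak under the length limit whose −log10 p was above the cKO value, so these are no sites gained in cKO. RNA counts stand against 2.08% of all tested genes lower and 1.96% higher at unadjusted P under 0.05 by edgeR. No list was tested as a set. Lists and their members were chosen with earlier results of these data known. A share above that of all genes is therefore a description and no independent support.

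Genes of the actin cytoskeleton and leading edge came first. Of 36 listed genes, 2 had a WT only promoter peak (*Actn1* and *Wasf2*) (5.56%) and 7 a cKO only one (19.4%, *Actb*, *Arpc2*, *Cald1*, *Ezr*, *Flna*, *Rac1* and *Rhoa*). In WT wounded, *Cald1*, *Ezr*, *Rac1* and *Rhoa* had a promoter peak under the length limit, and *Actb*, *Arpc2* and *Flna* had none. The *Flna* promoter peak, chrX:74246372-74246948, had a −log10 p of 4.53 and was listed in cKO wounded alone. Among peaks found in one list only and away from promoters, the strongest near a listed gene was WT only, in an intron of the tropomyosin gene *Tpm4* at chr8:72146531-72146887, with 12.7 in WT wounded and 6.27 in cKO unwounded. In the RNA, 9 of 34 tested genes of the list were lower in cKO at unadjusted P under 0.05 by edgeR and 0 higher, against 2.08% and 1.96% of all tested genes, with a median log2 difference of −0.24. Among them were *Actn1*, *Cald1*, *Fblim1*, *Flna*, *Msn*, *Myh9*, *Tpm1* and *Vcl*. *Flna*, which encodes the crosslinker filamin A, had 990.3 and 1000.03 CPM in WT wounded and 819 and 571 CPM in cKO wounded, a difference of −0.52, which was −0.28 without cKO wounded replicate 2. *Vcl*, which encodes the adhesion protein vinculin, had 542 and 350.4 CPM against 321 and 262 CPM, and its difference of −0.62 was −0.27 without WT wounded replicate 1 and −0.48 without cKO wounded replicate 2. The unadjusted P by edgeR was above 0.05 for *Tpm1* without WT wounded replicate 1 (−0.39) and for *Fblim1* (−0.90 and −0.90) without WT wounded replicate 1 or cKO wounded replicate 2. The same held for *Msn* (−0.30 and −0.29) without WT wounded replicate 2 or cKO wounded replicate 2, and for *Myh9* without any of these 3 libraries. So RNA was lower in cKO for *Cald1* and *Flna*, whose promoter peaks were counted as cKO only. Of these genes, only *Flna* had no WT wounded promoter peak at any strength.

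Cell contacts showed both kinds of peaks. Of 30 junction genes, *Dsg1a* and *Dsc1* had WT only promoter peaks, both desmosomal cadherins of upper layers, and *Dsg2*, *Ocln*, *Pkp1* and *Pkp3* had cKO only ones, each with a WT wounded peak under the length limit. At *Ocln* and *Pkp1* the WT value was the higher one, 4.70 against 3.62 and 4.95 against 4.76. *Cdh1*, which encodes E-cadherin, had the same 3 intronic regions in both lists. Their −log10 p was 8.81, 5.75 and 6.83 in WT and 5.18, 4.74 and 6.18 in cKO. The fold enrichment was lower in cKO at the first 2 and higher at the third, at 4.34 in cKO (chr8:106619499-106619751) and 4.16 in WT (chr8:106619477-106619903). Of 27 tested junction genes 3 were higher (*Dsc1*, *Dsg1a* and *Tjp3*) and 1 lower (*Gjb2*) at unadjusted P under 0.05 by edgeR. *Dsc1* (0.45) lost this call without WT wounded replicate 1 (0.35) or cKO wounded replicate 1 (0.38), and *Dsg1a* (0.53) without WT wounded replicate 1 (0.39). *Gjb2*, a gap junction gene, had 199.99 and 708 CPM in WT wounded and 179.7 and 72.0 CPM in cKO wounded, and its log2 difference of −1.85 was −0.66 without WT wounded replicate 2 and −1.34 without cKO wounded replicate 2.

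Of 17 genes of integrins and hemidesmosomes, *Lama3* and *Dst* had WT only promoter peaks and *Plec* a cKO only one, where the WT wounded peak under the length limit had the higher value (5.22 against 3.68). The *Lama3* peak, at a promoter of this laminin alpha chain gene, had a −log10 p of 8.47 in WT wounded and 3.56 in cKO unwounded (chr18:12333759-12334005). *Lama3* also had a shared promoter peak. Introns of *Itgb5* (chr16:33933425-33933897, 10.2) and *Itgb6* (chr2:60711231-60711892, 7.89), which encode integrin beta chains, held WT only peaks. Within 10000 bases of the gene, 11 of the 17 had a WT only peak and 7 a cKO only peak, against 16.1% and 15.1% of all annotated genes. Here too peaks of any kind were more frequent, with a WT wounded promoter peak at 82.4% against 34.2% of all annotated genes. *Itga5*, the fibronectin receptor alpha chain, had 1 WT only peak and 3 cKO only peaks around it. The cKO only peaks at chr15:103337479-103337938 and chr15:103358736-103358954 overlapped WT wounded peaks under the length limit. Their −log10 p was 5.01 and 5.02 in cKO wounded, against 4.61 and 4.33 in WT wounded. The *Itga5* promoter itself had a WT wounded peak of 4.31 under the limit and no cKO wounded peak. In the RNA 7 of the 17 were lower in cKO at unadjusted P under 0.05 by edgeR and 0 higher, against 2.08% and 1.96% of all tested genes, with a median log2 difference of −0.14. Among them were *Itga2*, *Itga5*, *Itgb1*, *Itgb6*, *Itgb8* and *Lama3*. *Lama3* had 512 and 1125 CPM in WT wounded and 599 and 472 CPM in cKO wounded, a difference of −0.61, which was 0.07 without WT wounded replicate 2 and −1.07 without WT wounded replicate 1. The differences of *Itga2* (−0.72), *Itga5* (−0.84) and *Itgb1* (−0.56) were −0.03, −0.44 and −0.29 without WT wounded replicate 2, while *Itgb6* (−0.63) and *Itgb8* (−0.65) were −0.27 and −0.43 without WT wounded replicate 1. Leaving out cKO wounded replicate 2 gave −0.46 for *Itga2*, −0.50 for *Itga5*, −0.32 for *Itgb1* and −0.39 for *Itgb6*.

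Keratin genes had few peaks in these lists. Of 6 wound keratins, *Krt6a* had a WT only peak at its promoter (chr15:101694444-101694679, −log10 p 5.89, 5.23 in cKO unwounded). *Krt6a* RNA was 1473 and 3410.2 CPM in WT wounded and 2467 and 972 CPM in cKO wounded. Its log2 difference was −0.51, and it was 0.23 without WT wounded replicate 2, 0.02 without cKO wounded replicate 2 and −1.32 without cKO wounded replicate 1. *Krt16* and *Krt17*, which lie side by side, shared 2 regions in both wounded lists. The peak at the *Krt16* promoter had 9.57 in WT (chr11:100249079-100249429) and 4.89 in cKO (chr11:100249122-100249428). The one beside *Krt17* had 6.51 and 5.15. *Krt17* RNA was 2310 and 1821 CPM in WT wounded and 1141 and 1381 CPM in cKO wounded, a log2 difference of −0.71. Of 7 basal and suprabasal keratins 0 had a promoter peak in one list only. *Krt1* and *Krt10*, keratins of upper layers, had log2 differences of 0.77 and 0.87, with 1486 and 2579 CPM of *Krt1* in WT wounded and 3161 and 3761 CPM in cKO wounded. That of *Krt1* was 0.43 without WT wounded replicate 1 and 1.23 without WT wounded replicate 2.

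Of 24 epidermal transcription factors, 14 (58.3%) had a WT only peak within 10000 bases and 10 (41.7%) a cKO only one, against 16.1% and 15.1% of all annotated genes. Peaks of any kind were more frequent at these genes. A WT wounded promoter peak was listed for 83.3% of them, against 34.2% of all annotated genes. At promoters, *Tfap2c*, *Cebpb*, *Elf3* and *Hes1* had WT only promoter peaks and *Klf4*, *Ehf*, *Sox9* and *Satb1* cKO only ones, and each of the 4 latter had a WT wounded peak under the length limit. *Tfap2c* and *Satb1* also had a shared promoter peak. The *Tfap2c* promoter peak had a −log10 p of 8.91 in WT wounded (chr2:172549260-172549496), 4.65 in WT unwounded and 4.93 in cKO unwounded. The *Cebpb* promoter peak, chr2:167688874-167689143, had 6.14 and was listed in WT wounded alone. RNA was higher in cKO at unadjusted P under 0.05 by edgeR for 4 of the 24, *Cebpa*, *Klf4*, *Satb1* and *Tfap2c*, and lower for 1, *Runx1*. *Tfap2c* had 120.1 and 120.1 CPM in WT wounded and 159 and 166 CPM in cKO wounded, a log2 difference of 0.44, which stayed between 0.41 and 0.48 with 1 library left out, but its unadjusted P by edgeR was above 0.05 without WT wounded replicate 1, WT wounded replicate 2 or cKO wounded replicate 2. *Klf4* had 1228 and 1079 CPM against 1752 and 1249 CPM, a difference of 0.38, which was 0.30 without WT wounded replicate 2 and 0.13 without cKO wounded replicate 1. *Satb1* had 29.9 and 42.5 CPM against 61.4 and 50.5 CPM, a difference of 0.63, which was 0.40 without WT wounded replicate 1 and 0.49 without cKO wounded replicate 1.

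Of 12 genes of AP-1 and stress factors, *Fosl1*, *Junb* and *Ier2* had WT only promoter peaks and *Jund* a cKO only one, where the WT wounded peak under the length limit had the higher value (5.09 against 4.37). The *Fosl1* peak, chr19:5447559-5447872, had a −log10 p of 6.56 in WT wounded and 4.58 in cKO unwounded. *Junb* (chr8:84978662-84978880, 5.49) and *Ier2* (chr8:84662836-84663020, 5.50) were listed in WT wounded alone and lay close to the length limit. *Fosl1* RNA was 142 and 132 CPM in WT wounded and 186 and 86.5 CPM in cKO wounded, so the groups overlapped. Of 11 tested genes of the list 3 were higher at unadjusted P under 0.05 by edgeR, *Atf3*, *Fos* and *Fosb*, and 0 lower.

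Among genes of alarmins and cytokines, *Il24*, *Il20ra* and *Stat3* had WT only promoter peaks, 3 of 20, and *Ccl20* a cKO only one. These 3 genes encode a cytokine, a receptor chain and a transcription factor, and a shared path was not tested. The *Il24* peak, chr1:130886448-130886830, had a −log10 p of 8.87 in WT wounded and 6.60 in cKO unwounded, and that of *Stat3*, chr11:100939374-100939935, had 8.37 and 5.70. The *Il20ra* peak, chr10:19712310-19712755, had 6.02 and 3.48. None of the 3 was listed in WT unwounded or cKO wounded. *Il24* RNA was 9.30 and 14.9 CPM in WT wounded and 10.8 and 10.4 CPM in cKO wounded, and *Stat3* RNA was 624 and 507 CPM against 583 and 462 CPM, so both overlapped. *Il20ra* RNA was higher in both cKO libraries, with 15.1 and 23.5 CPM in WT wounded and 39.9 and 50.2 CPM in cKO wounded. Of 19 tested genes of the list 2 were higher at unadjusted P under 0.05 by edgeR, *Il1rn* and *Il20ra*, and 0 lower.

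Signalling and protease genes showed the following. Of 14 TGF beta genes 0 had a WT only promoter peak and 4 a cKO only one, the receptor gene *Tgfbr2*, the binding protein gene *Ltbp1*, the activator gene *Thbs1* and the target *Tgfbi*. *Tgfbi* (chr13:56609057-56609243, −log10 p 5.50) had no WT wounded peak there, and the other 3 had WT peaks under the length limit. *Ltbp1* and *Thbs1* also had a shared promoter peak. Of the 14, *Tgfb2*, a ligand gene, was lower in the RNA, with 17.6 and 15.8 CPM in WT wounded and 8.9 and 4.6 CPM in cKO wounded, a log2 difference of −1.31. Of 11 EGF family genes *Errfi1*, a receptor inhibitor, had a WT only promoter peak and the ligand genes *Hbegf* and *Epgn* cKO only ones. *Nrg1*, another ligand gene of the family, had 4 cKO only intronic peaks, 3 of which overlapped WT peaks under the limit, and 15.2 and 20.4 CPM in WT wounded against 10.7 and 4.90 CPM in cKO wounded. Of 13 wound proteases and their partners, *Mmp10* and *Plaur* had WT only promoter peaks. *Mmp9*, a gelatinase gene, had 1 peak in any of the 4 lists, the cKO only peak chr2:164938713-164938898 with 5.42, and 8.82 and 38.9 CPM in WT wounded against 10.8 and 3.25 CPM in cKO wounded. The log2 difference of *Mmp9* (−1.76) was −0.32 without WT wounded replicate 2 and −1.14 without cKO wounded replicate 2. That of *Nrg1* (−1.19) was −0.95 and −0.73 without these libraries.

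The remaining lists held few members. Among 27 genes of chromatin silencing *Cbx1* and *Hdac1* had WT only promoter peaks and *Dnmt1*, the maintenance DNA methyltransferase gene, a cKO only one. *Hdac1*, a histone deacetylase gene, had 112.5 and 119 CPM in WT wounded and 92.0 and 85.9 CPM in cKO wounded, a log2 difference of −0.38, whose unadjusted P by edgeR passed 0.05 upward when any 1 wounded library was left out. Of 16 Hippo genes *Lats1* and *Tead3* had WT only and *Lats2*, *Tead1* and *Ccn2* cKO only promoter peaks, all 3 with a WT wounded peak under the length limit. The WT value was the higher one at *Tead1* (5.30 against 4.32) and *Ccn2* (5.12 against 4.74). Of 10 Notch genes *Hes1* had a WT only one. Of 21 cornified envelope genes *Tgm5*, a transglutaminase gene, had a WT only promoter peak, and an exon of *Tgm3* held a WT only peak of −log10 p 10.2 at chr2:130029884-130030168. Of 15 barrier lipid genes *Aloxe3*, an epidermal lipoxygenase gene, had a WT only peak and *Elovl1* and *Ugcg*, which act in ceramide synthesis, cKO only ones.

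Markers of other cells were read beside these groups. Among 8 fibroblast markers *Col1a2* and *Pdgfra* had cKO only promoter peaks, and *Col1a2* (chr6:4505197-4505781, −log10 p 4.27) had no WT wounded peak there. *Tek*, 1 of 7 endothelial markers, had a cKO only promoter peak of 4.63, with 4.29 in WT wounded. Summed fibroblast RNA was 19.8 and 46.7 CPM in WT wounded and 26.6 and 37.5 CPM in cKO wounded, mostly from *Col3a1*, *Col1a2* and *Col1a1*. Summed endothelial RNA was 22.5 and 7.61 CPM in WT wounded and 9.57 and 9.60 CPM in cKO wounded, mostly from *Cdh5*, *Pecam1* and *Kdr*. Of 5 markers of muscle and mural cells, *Acta2* was lower in cKO, with 16.4 and 10.01 CPM against 0.75 and 4.42 CPM. Its log2 difference of −2.35 was −1.95 without WT wounded replicate 1, −1.56 without cKO wounded replicate 1 and −4.12 without cKO wounded replicate 2. *Des* went the other way, with 0 and 1.495 CPM in WT wounded and 1.85 and 3.45 CPM in cKO wounded. Its log2 difference was 1.82, with an unadjusted P by edgeR above 0.05. *Myh11* had 1.85 and 0 CPM in WT wounded and 0 in both cKO wounded libraries. The other 2 markers were below 1 CPM in all wounded libraries. *Hba-a1* and *Hbb-bs*, markers of erythroid cells, were at 0 in all wounded libraries. The summed RNA of 7 hair follicle markers was 2346 and 1636 CPM in WT wounded and 1454 and 1998 CPM in cKO wounded, led by *Krt79*, and *Sox9* and *Lef1* had cKO only promoter peaks. At both, the WT wounded peak under the length limit had the higher −log10 p, 5.14 against 4.43 at *Sox9* and 5.06 against 4.81 at *Lef1*. The part of other cells in the actin and integrin differences was not tested.

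Sequence was compared in 300-base windows at the peak centres. A GRHL core match was found in 5.42% (4.88 to 6.01) of WT only, 4.55% (4.05 to 5.10) of cKO only, 4.46% of shared WT and 4.57% of shared cKO peaks, and in 2.72% of all RefSeq promoters of the same length. Promoters hold fewer such matches, so places away from promoters were also compared alone. There the share was 6.04% (5.42 to 6.72) in WT only, 5.17% (4.56 to 5.84) in cKO only, 6.32% in shared WT and 6.46% in shared cKO peaks. The intervals of the WT only and cKO only shares overlapped in both comparisons. Between the 10000 strongest peaks of each list the shares were 6.26% (5.45 to 7.17) of WT only and 4.02% (3.38 to 4.78) of cKO only peaks. Those intervals did not overlap. At this setting a peak counted as found in one list only could still overlap a weaker peak of the other list. The cKO only peaks were also more often at promoters there, and places away from promoters were not compared alone. The difference was not tested.

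AP-1 matches, the motif of FOS and JUN factors, were counted in the same windows. They were in 33.7% (32.6 to 34.9) of WT only, 26.7% (25.6 to 27.8) of cKO only, 27.4% of shared WT and 28.2% of shared cKO peaks, against 7.94% of RefSeq promoters. Away from promoters the shares were 38.6% (37.2 to 39.9) in WT only and 32.8% (31.4 to 34.1) in cKO only, both below the 42.0% of shared WT and the 42.9% of shared cKO peaks. The WT only share was thus the higher of the 2 also away from promoters. The letters GGGCGG, bound by KLF and SP factors, were in 17.985% of WT only and 22.4% of cKO only peaks against 34.2% of shared WT peaks, and the median GC content was 49.3% in both one-list sets against 52.7% in shared peaks. Away from promoters GGGCGG was in 10.1% of WT only, 10.8% of cKO only and 11.3% of shared WT peaks. ACATTCC of TEAD factors was in 5.71% of WT only and 5.47% of cKO only peaks, TGTGGT of RUNX factors in 18.9% and 18.8%, and TTGCNNAA of CEBP factors in 15.0% and 14.7%. These 3 shares differed little between the sets. CCACNAGG, part of the CTCF motif, was in 5.84% of WT only and 4.58% of cKO only peaks.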

How the data were processed

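The authors deposited peak lists with a fold enrichment ratio and a −log10 p per peak, made by MACS2, and RNA counts per gene. The score column, as the authors deposited it from MACS2, was not used. By the study's methods, ATAC-seq reads were trimmed with Trimmomatic, aligned with bowtie2 at the very sensitive setting and called with MACS2. The files are in the broad peak format, and the peak names show that no control was used. The labels name FastQC, kallisto and mm10, and which step made the RNA counts is not stated. The 5 tally lines at the end of the count files, equal to 4.80 to 6.11% of the counts, were left out.

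Here overlap meant at least 1 shared base. Promoters ran from 1000 bases upstream to 100 bases downstream of a gene start of GENCODE M21, the flank of a gene was 10000 bases and motif windows were 300 bases. Intervals are 95% Wilson intervals. RNA was tested over 7 libraries in 4 groups with edgeR 4.0.16 in R 4.3.3, with DESeq2 1.42.0 as an alternative and limma 3.58.1 beside them. Python 3.11.15, pandas 2.3.3, numpy 2.4.6, scipy 1.17.1, pysam 0.24.0 and bedtools 2.31.1 did the rest. Of 24421 symbols in the counts 21706 matched the annotation. The overlap counting and the RNA test were checked on simulated data. The 16 gene lists hold 278 genes. Members and lists were chosen with earlier results of these data known. Named genes were those with the strongest peaks, the most peaks or the smallest P of each set, the list members with a promoter peak, and genes of the study.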

Additional observations from a re-analysis of the deposited data

How the results depend on the processing

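Of 104 peak values 73 stayed within the interval or 1.5 times under the alternatives and 31 moved. Whole lists gave 16691 WT only and 2173 cKO only peaks, and the 10000 strongest of each gave 3071 and 3059. The promoter share of WT only peaks was 27.3% with the 10000 strongest, 22.7% at fold enrichment of at least 4 and 23.3% with wider promoters. For cKO only peaks it was 12.6% with whole lists, 35.2% with the 10000 strongest, 26.0% when ranked by fold, 29.1% at fold of at least 4 and 31.1% with wider promoters. In the order whole lists, 10000 strongest, ranked by fold and fold of at least 4, the WT only share listed in cKO unwounded was 40.1%, 89.8%, 51.5% and 74.4%, and in WT unwounded 4.72%, 41.3%, 7.20% and 22.8%. For cKO only peaks the shares were 29.8%, 87.5%, 60.3% and 73.3% in cKO unwounded, and 2.95%, 35.2%, 15.7% and 17.6% in WT unwounded. GRHL core matches were in 6.26% of WT only and 4.02% of cKO only peaks among the 10000 strongest, and in 6.09% of WT only peaks at fold of at least 4. Ranking by fold kept 5741 (93.4%) of the WT only and 5606 (93.0%) of the cKO only peaks. In the RNA, the edgeR quasi-likelihood test with Benjamini-Hochberg adjustment gave 0 genes, 51 without the expression filter, and 0 to 21 with 1 library left out (8 without WT wounded replicate 1, 21 without WT wounded replicate 2), and DESeq2 gave 3. Unadjusted counts ran from 420 to 855 with 1 library left out. With replicate number as a block (taken from the labels, where 1 cKO unwounded library has another number in its file), 596 genes had an unadjusted P under 0.05 by edgeR and 0 an adjusted one. Differences paired by replicate number had a correlation of −0.14 across 8464 genes, and a crossed pairing, chosen after seeing the data, gave 823 unadjusted and 21 adjusted. Of 492 values of named genes 410 stayed the same, 72 lost the unadjusted call, 6 gained it and 4 reversed, namely *Fscn1* (0.16 without cKO wounded replicate 2), *Lama3* (0.072 without WT wounded replicate 2) and *Krt6a* (0.23 without WT wounded replicate 2, 0.02 without cKO wounded replicate 2). The lowest values were −1.10 for *Fscn1* without cKO wounded replicate 1, −1.07 for *Lama3* without WT wounded replicate 1 and −1.32 for *Krt6a* without cKO wounded replicate 1. The cause was not tested.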
